A study of Mus musculus with 7 samples.

Results

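The 9 genes described here are the output genes of the circadian clock and the REV-ERB genes on arrays of mouse skeletal muscle: Dbp, Tef, Hlf, Nr1d1, Nr1d2, Ciart, Usp2, Bhlhe40 and Bhlhe41. They were taken by gene symbol, with 1 feature per gene (a feature is the set of probes summarised as 1 value), the one with the highest mean over the arrays. All 9 were found among 22180 genes with 1 symbol, and all 9 passed the signal filter, which asked for a value no lower than the median of the array in 2 or more arrays and left 13364 genes for testing. The arrays (7 in all) came from whole skeletal muscle of mice. There were 3 arrays of young wild-type mice aged 2 to 3 months (young WT 1 to 3), 2 of wild-type mice aged 24 months (aged WT 2 and 3, numbered as in the labels) and 2 of MISR mice aged 24 months (aged MISR 1 and 2). MISR mice carry a transgene for the IκB super-repressor, a dominant inhibitor of NF-κB, which the muscle creatine kinase promoter expresses in muscle fibers but not in satellite cells. There was no group of young MISR mice, so aged MISR against young WT muscle differed in both age and transgene. The methods give commercial colonies as the source of WT mice and say that MISR mice were bred in house, and which WT mice went on the arrays is not stated. Which muscle was taken, the sex of the mice and the time of day of harvest were given by none of the sources used here. The part of harvest time in the differences below was not tested.

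In the circadian clock, the activators CLOCK (or NPAS2) and BMAL1, the product of Arntl, bind E-boxes in DNA and drive their own repressors as well as output genes. The output factors DBP, TEF and HLF bind D-boxes and pass the daily rhythm on to many genes of metabolism. The REV-ERB receptors, encoded by Nr1d1 and Nr1d2, bind ROR elements (ROREs) and repress Arntl and other genes, so that the E-box and RORE genes peak at opposite times of day. In skeletal muscle this clock runs in the muscle fibers themselves and sets the daily rhythm of many genes of fuel use.

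The values are log2 signals after RMA (robust multi-array average), so the differences below are differences of log2 means. A single limma fit of all 7 arrays compared the group means, with p-values adjusted by the Benjamini-Hochberg method over all 13364 genes and called under 0.05. Array medians lay between 5.86 and 5.93. The fiber gene Ckm read 13.3 to 13.5, and the log2 of the summed signal of 9 skeletal muscle markers was 16.5 in each of the 7 arrays. Nfkbia, the endogenous gene of IκBα, read 8.17 and 8.94 in aged MISR muscle and 7.97 to 9.01 in WT muscle, and the sources used here do not say whether its probes see the transgene, so it does not check the labels. The aged arrays were less alike than the young ones. The standard deviation of the gene-wise difference was 0.209 for the aged WT pair and 0.279 for the aged MISR pair, against 0.128 to 0.151 for pairs of young WT arrays. The arrays are biological replicates by the design text, and whether each held 1 mouse was not given. In bulk RNA fewer cells of a type and less RNA per cell cannot be told apart.

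The means of 8 of the 9 genes were lower in the aged WT than in the young WT group, as were those of 47.7% of all tested genes, and none of the 9 passed the test. Both aged WT arrays lay below all 3 young WT arrays in 8 of the 9 genes, all but Bhlhe40, beside 15.7% of all tested genes. In Nr1d2 the margin was very small (lowest young WT value 9.854, highest aged WT value 9.853). The differences ran from −0.52 (Ciart) to 0.03 (Bhlhe40), with a median of −0.25 over the 9 genes and of 0.01 over all genes. In limma 0 of the 9 were called, beside 0.18% of all genes, and the smallest adjusted p was 0.232, for Nr1d1. At an unadjusted p under 0.05, 4 of the 9 genes (Dbp, Hlf, Nr1d1 and Ciart) were lower, beside 6.41% of all genes. That count was 2 without aged WT 2, 1 without aged WT 3, 1 without young WT 1 and 0 without young WT 2.

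**Figure D1:**
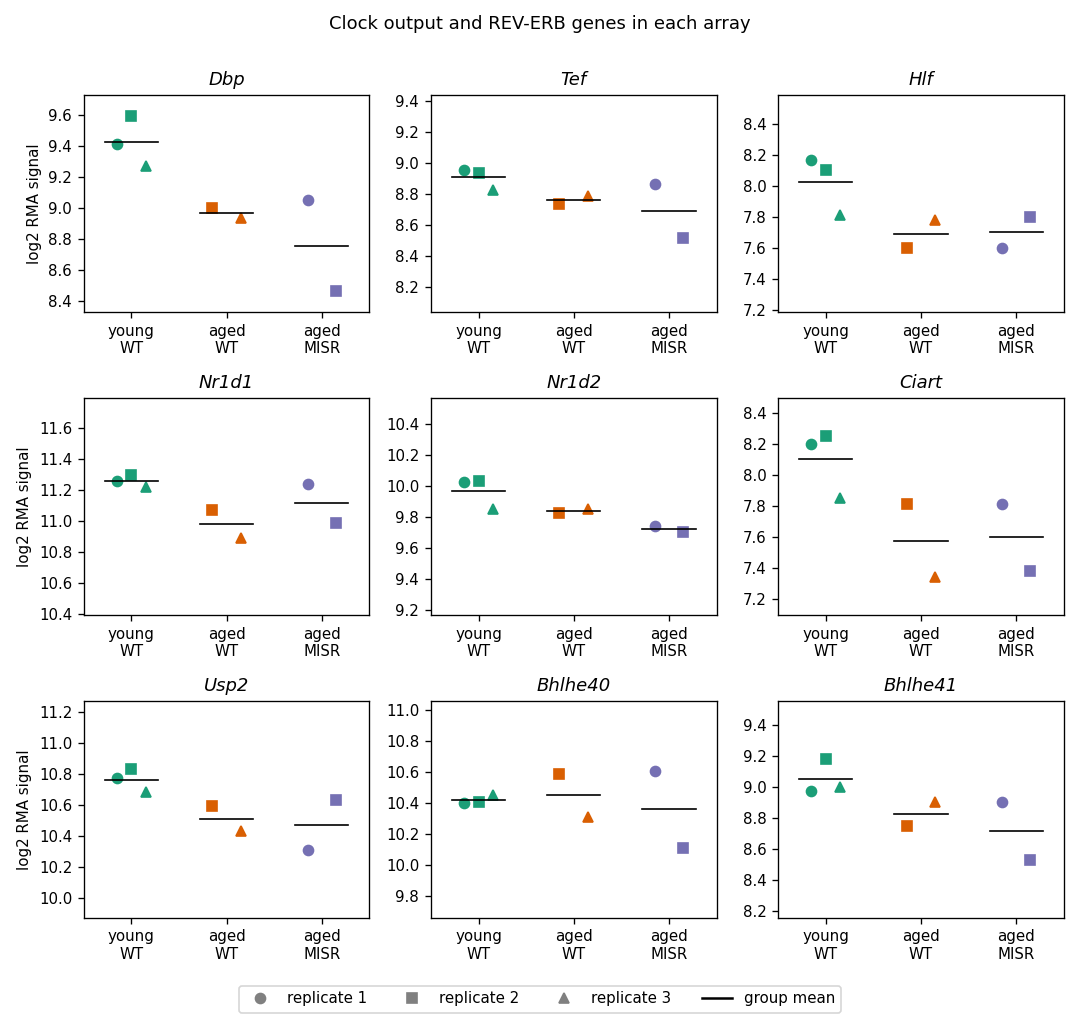
Log2 RMA signal (vertical axis, the same span in each panel) of the 9 genes in the 3 young WT, 2 aged WT and 2 aged MISR arrays. Each point is 1 array, its shape gives the replicate number and the black line is the group mean. The 4 aged arrays lie below the 3 young WT arrays in Dbp, Hlf, Nr1d2, Ciart, Usp2 and Bhlhe41.

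The PAR bZIP factors DBP, TEF and HLF are close relatives that bind the same D-box sequence. Dbp, whose product is among the most rhythmic clock outputs known, read 9.41, 9.59 and 9.27 in young WT 1 to 3, 9.0 and 8.93 in aged WT 2 and 3, then 9.05 and 8.46 in aged MISR 1 and 2. All 4 aged arrays were below the young ones, and aged MISR 2 was far below the rest. Dbp had the widest range of the 9 genes, 1.13. Dbp in aged WT muscle stood at 72.7% of the young WT level (difference −0.46, standard error 0.17, 95% interval −0.87 to −0.06, adjusted p = 0.270 from limma). In aged MISR muscle Dbp stood at 62.7% of the young WT level, with a difference of −0.67 (standard error 0.17, 95% interval −1.08 to −0.27, adjusted p = 0.130 from limma). Without aged MISR 1 the latter Dbp difference was −0.97, and without aged MISR 2 it was −0.38.

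Hlf read 8.17, 8.10 and 7.81 in young WT, 7.60 and 7.78 in aged WT, then 7.60 and 7.80 in aged MISR muscle. The groups were separate only by a small margin, since young WT 3 was just above the higher array of either aged group. Hlf was at 79.1% of the young WT level in aged WT muscle and at 79.8% in aged MISR muscle, with differences of −0.34 and −0.32 (adjusted p = 0.270 and 0.236 from limma).

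Tef had the smallest differences of these 3 factors. It read 8.96, 8.94 and 8.83 in young WT, 8.74 and 8.79 in aged WT, then 8.87 and 8.52 in aged MISR muscle, so that aged MISR 1 lay among the young arrays. The differences from young WT were −0.14 in aged WT and −0.21 in aged MISR muscle (adjusted p = 0.542 and 0.323 from limma). The latter was −0.39 without aged MISR 1 and −0.04 without aged MISR 2. A second feature of Tef, which was dimmer and was not used, read 6.73 to 6.80 in young WT and 6.67 to 7.05 in the aged arrays, with no separation of young from aged, and the mean of both features gave a difference of −0.03 in aged WT muscle.

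The promoters of the 9 genes were searched in RefSeq sequence (build GRCm38.p6, from 250 bases before to 50 bases after the start of transcription) for the E-box CACGTG, the D-box TTATGTAA or TTACGTAA and the RORE core TAGGTCA, on both strands. The table held entries for 8 of the 9 genes, Bhlhe40 being the exception. Tef, Ciart and Bhlhe41 had an E-box, as had 8.09% of all 27025 gene symbols with a listed promoter. None of the 8 genes had a match to the D-box (1.23% of all these symbols) or the RORE core (2.97%) in this window. Tef has 2 listed starts with 1 E-box before each, at −127 and −138 (first base, counted back from the start). These stretches are shown because they carry the E-box, in capitals, of the Tef starts. They lie on the plus strand, and all stretches here are written in the direction of transcription, at chr15:81802532-81802575 and chr15:81811262-81811305.
Tef, start 1: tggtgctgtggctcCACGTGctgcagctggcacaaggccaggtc
Tef, start 2: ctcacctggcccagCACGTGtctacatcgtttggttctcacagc

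The REV-ERB receptors are the link from the output arm back to Arntl. Nr1d1 (REV-ERBα) read 11.26, 11.30 and 11.22 in young WT, 11.07 and 10.89 in aged WT, then 11.24 and 10.99 in aged MISR muscle. The aged WT arrays were clearly below the young ones, while aged MISR 1 lay within the young range. Nr1d1 in aged WT muscle was at 82.2% of the young WT level (difference −0.28, standard error 0.10, 95% interval −0.51 to −0.06, adjusted p = 0.232 from limma). In aged MISR muscle Nr1d1 was −0.14 from young WT (95% interval −0.37 to 0.08, adjusted p = 0.430 from limma), −0.27 without aged MISR 1 and −0.02 without aged MISR 2.

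Nr1d2 (REV-ERBβ) showed the reverse order of the aged groups. It read 10.02, 10.03 and 9.85 in young WT, 9.82 and 9.85 in aged WT, then 9.74 and 9.70 in aged MISR muscle. The arrays within each aged group were close together, and young WT 3 and aged WT 3 differed only in the third decimal. The difference from young WT was −0.13 in aged WT muscle (adjusted p = 0.429 from limma) and −0.25 in aged MISR muscle (95% interval −0.43 to −0.08, adjusted p = 0.160). Nr1d2 had the smallest range over the 7 arrays of the 9 genes, 0.33.

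Ciart (CHRONO), which represses the CLOCK and BMAL1 pair, had the largest difference of the 9 genes in aged WT muscle. It read 8.20, 8.25 and 7.85 in young WT, 7.81 and 7.34 in aged WT, then 7.81 and 7.38 in aged MISR muscle. In both aged groups 1 array was just below young WT 3 and the other well below it. Ciart in aged WT muscle was at 69.5% of the young WT level (difference −0.52, standard error 0.19, 95% interval −0.98 to −0.07, adjusted p = 0.265 from limma) and in aged MISR muscle at 70.4% (difference −0.51, 95% interval −0.96 to −0.05, adjusted p = 0.229). Without aged WT 3 the former Ciart difference was −0.29, and without aged MISR 2 the latter was −0.29. The Ciart promoter held 3 E-boxes, the most among the 8 genes, at −116, −58 and −44. The stretch from −130 to −15 on the minus strand (chr3:95882243-95882358) is shown because it holds all 3, in capitals.
Ciart: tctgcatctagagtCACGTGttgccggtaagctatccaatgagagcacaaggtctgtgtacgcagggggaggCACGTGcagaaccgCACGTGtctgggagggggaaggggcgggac

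Usp2, a ubiquitin protease that acts on clock proteins and has a rhythmic short isoform, read 10.77, 10.83 and 10.68 in young WT, 10.59 and 10.43 in aged WT, then 10.31 and 10.63 in aged MISR muscle. All 4 aged arrays were below the young ones, and here aged MISR 1 was the lowest. The single feature does not tell the isoforms of Usp2 apart. The differences from young WT were −0.25 in aged WT and −0.29 in aged MISR muscle (adjusted p = 0.327 and 0.223 from limma). The latter was −0.13 without aged MISR 1 and −0.45 without aged MISR 2.

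The basic helix-loop-helix repressors Bhlhe40 (DEC1) and Bhlhe41 (DEC2) bind E-boxes and compete with the activators. The 2 genes differed in their readings. Bhlhe41 read 8.97, 9.18 and 9.0 in young WT, 8.75 and 8.90 in aged WT, then 8.90 and 8.53 in aged MISR muscle, with all 4 aged arrays below the young ones. Its differences from young WT were −0.23 and −0.33 (adjusted p = 0.416 and 0.218 from limma), and the latter was −0.15 without aged MISR 2 and −0.52 without aged MISR 1. Bhlhe40 was close to constant in young WT muscle, at 10.40, 10.41 and 10.45, and spread to both sides in the aged arrays, at 10.59 and 10.31 in aged WT, then 10.61 and 10.11 in aged MISR muscle. Its standard deviation was 0.025 in young WT, 0.195 in aged WT and 0.354 in aged MISR muscle (n = 3, 2 and 2), and no test of these spreads was run. Its differences from young WT were 0.03 and −0.06, with a 95% interval of −0.32 to 0.38 in aged WT muscle. The E-box of the Bhlhe41 promoter, at −153, is shown in capitals with its surroundings on the minus strand (chr6:145865544-145865587).
Bhlhe41: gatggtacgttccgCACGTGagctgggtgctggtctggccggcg

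**Figure D2:**
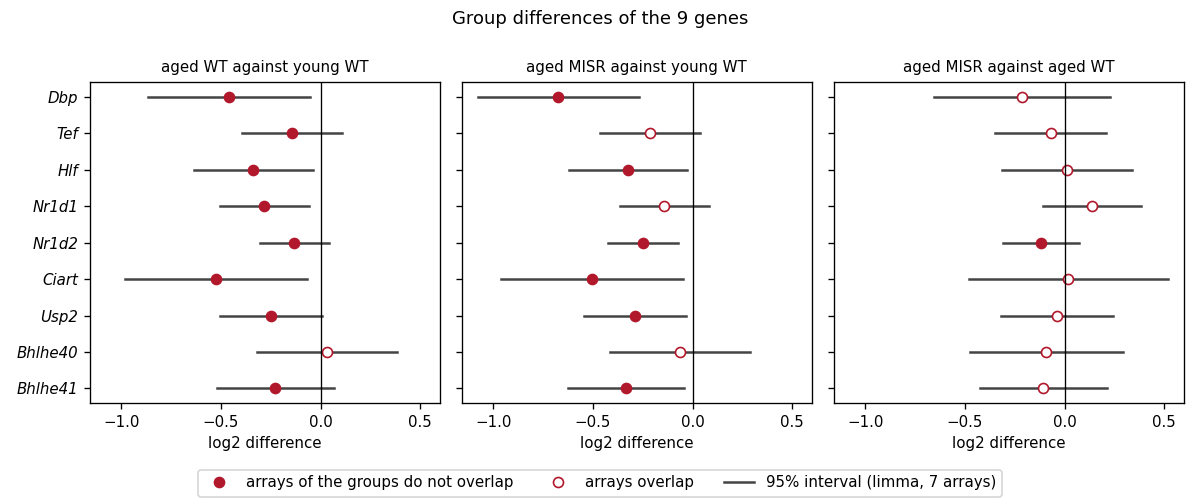
Differences of group means (log2, horizontal axis) of the 9 genes in the 3 comparisons, with 95% intervals from limma over 7 arrays. Filled points mark genes whose arrays did not overlap between the groups (8, 6 and 1 of 9 from left to right). All 9 differences of aged MISR from young WT muscle lie below 0, and all 9 intervals of aged MISR against aged WT muscle include 0.

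In aged MISR muscle all 9 means were below those of young WT muscle, which held for 39.3% of all genes. The differences ran from −0.67 (Dbp) to −0.06 (Bhlhe40), with a median of −0.29, beside 0.04 over all genes. Arrays did not overlap in 6 of 9 genes (Dbp, Hlf, Nr1d2, Ciart, Usp2 and Bhlhe41), beside 13.6% of all genes in that direction. In limma 0 of the 9 were called, beside 0.591% of all genes, and at an unadjusted p under 0.05 the same 6 genes were lower, beside 6.97%. This count was 3 without young WT 1 and 2 without young WT 2. The 6 genes were also those in which all 4 aged arrays lay below all 3 young ones, beside 5.34% of all genes. Some margins between the lowest young and the highest aged value were small. They were 9.854 and 9.853 in Nr1d2, 7.807 and 7.804 in Hlf, and 7.848 and 7.806 in Ciart. Array medians themselves lay between 5.86 and 5.93, and these counts were made on the deposited values only. Both comparisons with young muscle use the same 3 young WT arrays.

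The muscle fiber NF-κB block at 24 months was addressed by aged MISR against aged WT muscle. The means of 6 of the 9 genes were lower in the MISR mice, as were 45.9% of all genes. None of the 9 genes was called, beside 0.0524% of all genes, and at an unadjusted p under 0.05 the count was also 0 of 9, beside 12.2%. The differences ran from −0.21 (Dbp) to 0.14 (Nr1d1), with a median of −0.07, beside 0.01 over all genes. Only Nr1d2 was separate, with both aged MISR arrays below both aged WT arrays (difference −0.12, 95% interval −0.31 to 0.07, adjusted p = 0.597 from limma), beside 15.4% of all genes. The intervals were wide for Ciart (−0.48 to 0.52) and Dbp (−0.66 to 0.23). Without aged MISR 1 the unadjusted count was 3 of 9, with a difference of −0.51 in Dbp. Without aged MISR 2 the mean was lower in 3 of the 9 genes, the median difference was 0.08 and the Dbp difference was 0.08. With quantile normalization the mean was lower in 8 of the 9 genes.

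The 2 aged MISR arrays differed from each other in these genes more than genes at large. The median absolute gap between them was 0.35 over the 9 genes, beside 0.12 over all tested genes, and 7 of the 9 were lower in aged MISR 2 (all but Hlf and Usp2). Between the 2 aged WT arrays the median gap was 0.16, beside 0.10 over all genes. Young WT pairs also differed: the gap was 0.13 between young WT 1 and 3 and 0.18 between young WT 2 and 3, beside 0.07 and 0.09. Between young WT 1 and 2 it was 0.05, beside 0.07. Of the 9 genes, 5 had their lowest value in aged MISR 2, 2 in aged MISR 1 and 2 in aged WT 3. Young WT 2 held the highest value of 6 genes. With each gene centred on its own 7-array mean, the median over the 9 genes was 0.16, 0.23 and 0.04 in young WT 1 to 3, −0.07 and −0.10 in aged WT 2 and 3, 0.00 in aged MISR 1 and −0.29 in aged MISR 2. Keeping only aged WT 3 and aged MISR 2 as the aged arrays was a choice made after seeing the data. Both lay below all young WT arrays in 9 of 9 genes, beside 11.1% of all genes. These arrays hold 2 and 5 of the lowest values of the 9 genes, so the count follows in part from that choice.

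Markers of other cells and fibers also differed between the groups. All 7 slow fiber markers, such as Myh7 (slow myosin) and Tnnc1 (slow troponin C), lay below the young arrays in both aged groups, and none was called. The log2 of their summed signal was 12.8 to 12.9 in young WT, 11.8 to 12.2 in aged WT and 11.2 to 12.5 in aged MISR muscle. The slow fiber markers were lowest in aged MISR 1 (median −1.06 from the 7-array mean), the array in which Hlf and Usp2 were also lowest. Hlf read 7.60 in aged WT 2 as well, and the slow fiber median of that array was −0.04. In aged MISR 2, where the median of the 9 genes and 5 of their single values were lowest, the slow fiber median was −0.02. It was 0.46 to 0.58 in the young WT arrays. All 6 connective tissue markers were below the young arrays in aged WT muscle, with a summed signal of 12.7 to 12.8, beside 13.0 to 13.1 in young WT and 13.1 to 13.2 in aged MISR muscle. All 8 macrophage markers were above the young arrays in aged MISR muscle (summed signal 11.1 in both arrays, beside 10.4 to 10.5 in young WT and 10.01 to 10.62 in aged WT muscle). Of these 8, 1 was called against young WT muscle. The medians of the neutrophil and platelet markers were highest in aged MISR 1 (0.94 and 1.29) and that of the adipocyte markers in aged MISR 2 (1.11). The neutrophil marker Elane was an exception, at 6.73 in aged MISR 1, below the young WT arrays (6.80 to 7.23). Neutrophil markers were lowest in aged MISR 2, with a median of −1.42. The summed signal of 3 plasma and B cell markers was 9.11 to 10.03 in aged MISR muscle, beside 7.62 to 8.03 in WT arrays. Of these 3, 1 was called higher in aged MISR muscle against either WT group. Jchain had by far the largest rise, at 9.59 and 8.44 in aged MISR 1 and 2, beside 5.55 to 6.06 in WT arrays. Among the WT arrays only young WT 3 read above its array median, so Jchain passed the signal filter only through the aged MISR arrays, where it is high. Mzb1 was also above the WT arrays, while Cd79a in aged MISR 2 (6.33) lay within the young WT range. The summed signal of 4 endothelial markers was 11.5 to 11.6 in aged WT muscle, beside 11.7 to 11.8 in young WT and 11.6 to 12.0 in aged MISR muscle. Of 2 brown fat markers none passed the filter. The part of these cells and fibers in the readings of the 9 genes was not tested.

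**Figure D3:**
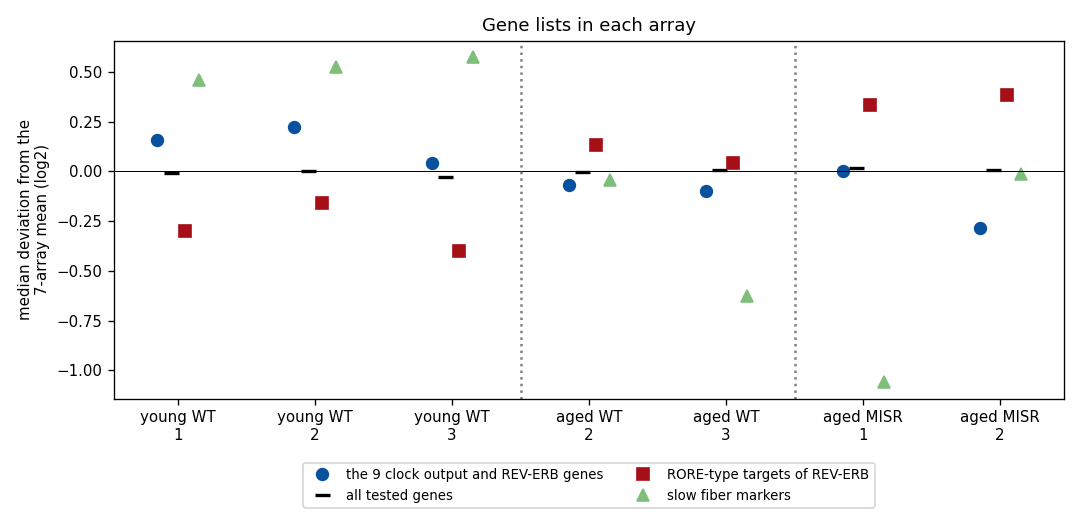
Median deviation from the 7-array mean of each gene (log2, vertical axis) in each array, for the 9 clock output and REV-ERB genes (blue circles), 5 RORE-type targets of REV-ERB (red squares), 7 slow fiber markers (green triangles) and all 13364 tested genes (black dashes). The blue circles run from 0.23 in young WT 2 to −0.29 in aged MISR 2, and the slow fiber markers are lowest in aged MISR 1 at −1.06.

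The activator arm and the RORE targets read the other way. Of the 7 genes listed as RORE-type targets of REV-ERB, 5 were tested (Arntl, Clock, Npas2, Cry1 and Nfil3), and all 5 means were higher in both aged groups than in young WT muscle (medians 0.28 in aged WT and 0.72 in aged MISR muscle). Over all genes the mean was lower in 47.7% (aged WT) and 39.3% (aged MISR), so a higher mean was common. Cry1 overlapped the young WT arrays (7.03 to 7.24), at 7.16 and 7.24 in aged WT 2 and 3. Arntl, the gene of BMAL1, read 9.16, 9.23 and 9.26 in young WT, 9.87 and 10.13 in aged WT, then 10.06 and 10.07 in aged MISR muscle. It rose by 0.78 in aged WT and by 0.84 in aged MISR muscle (adjusted p = 0.0356 and 0.0241 from limma). Npas2, which can replace CLOCK as the partner of BMAL1, read 6.17, 6.21 and 6.42 in young WT, 7.19 and 7.17 in aged WT, then 7.28 and 7.70 in aged MISR muscle. It rose by 1.23 in aged MISR muscle (adjusted p = 0.0276) and was 0.91 higher in aged WT muscle without passing the test (adjusted p = 0.0563). Of 20 other settings, 9 called this Npas2 difference, among them array weights (adjusted p = 0.0303 from limma) and the looser threshold of 0.1. These 9 are not independent, since leaving out either aged MISR array gives the same test as the fit of only these 2 groups.

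Nfil3 (E4BP4) binds the same D-boxes as DBP, TEF and HLF and represses where they activate. It read 7.95, 8.09 and 7.85 in young WT, 8.23 and 8.25 in aged WT, then 8.58 and 8.79 in aged MISR muscle, so that the 3 groups were separate from one another. Against young WT, Nfil3 rose by 0.72 in aged MISR muscle (standard error 0.10, adjusted p = 0.0382 from limma). Its aged WT mean was 0.28 above the young WT mean (adjusted p = 0.237), and its aged MISR mean was another 0.44 above that (95% interval 0.20 to 0.69, adjusted p = 0.186). The calls of Arntl, Npas2 and Nfil3 were lost when any 1 young WT array was left out (adjusted p = 0.0959 to 0.217). The Arntl call in aged WT muscle was also lost without either aged WT array (0.229 and 0.0647). In aged MISR muscle Arntl was lost without aged MISR 1 (0.0656), Npas2 without either aged WT array (0.0601 for each) and Nfil3 without aged MISR 1 (0.0626) or either aged WT array (0.0744 for each). Arntl had a match to the RORE core at 31 bases after its second listed start, and Npas2 had none in the window. The Nfil3 promoter held the RORE core, on the reverse strand, from −12. The stretch is shown to the start of transcription with the match in capitals (minus strand, chr13:52981040-52981065).
Nfil3: gcggcgctcggaacTGACCTActaac

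**Figure D4:**
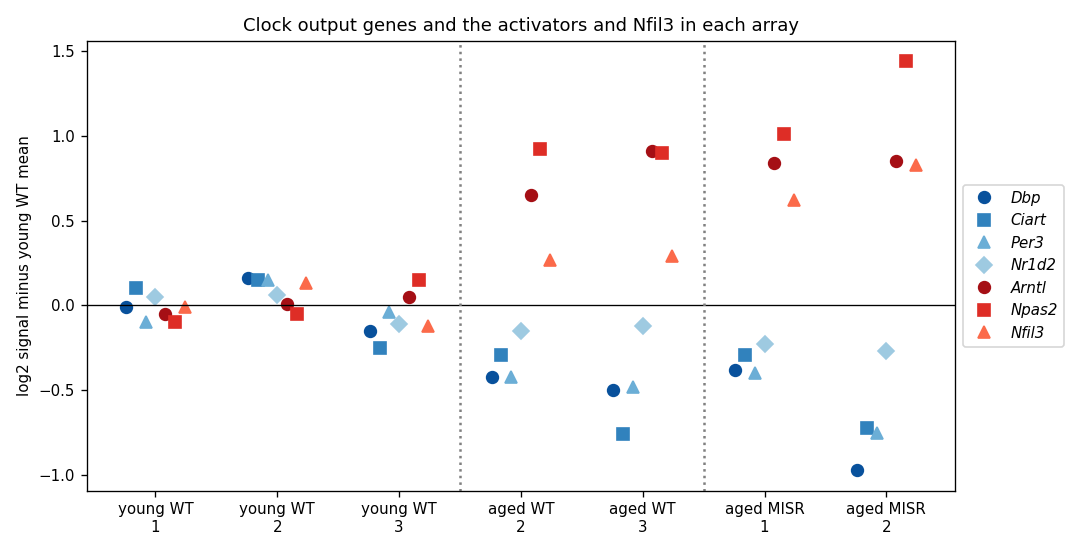
Log2 signal minus the young WT mean of the same gene (vertical axis) in each of the 7 arrays. Blue symbols are Dbp, Ciart, Per3 and Nr1d2 and red symbols are Arntl, Npas2 and Nfil3. In each of the 4 aged arrays the red symbols lie above 0 and the blue symbols below it. They are furthest apart in aged MISR 2 (Npas2 at 1.44, Dbp at −0.97). The genes drawn are a selection, and the pattern does not hold for every clock gene. Of those not drawn, Tef, Hlf, Nr1d1, Usp2 and Bhlhe41 also lay below 0 in all 4 aged arrays. Clock and Cry1 lay above it. Bhlhe40 was at 0.17 in aged WT 2 and 0.19 in aged MISR 1. Per1 was at 0.31 in aged WT 2, and Cry2 lay on both sides of 0.

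Per3, a Period gene of the repressor arm, followed Dbp most closely. By the root mean square difference of centred values over the 7 arrays, Per3 was the nearest of all tested genes outside the 9 to Dbp (0.096, beside 0.343 for the spread of Dbp about its own mean). It read 8.34, 8.59 and 8.4 in young WT, 8.02 and 7.96 in aged WT, then 8.04 and 7.70 in aged MISR muscle. All 4 aged arrays were below the young ones, and aged MISR 2 was again the lowest. Its differences from young WT were −0.45 and −0.57 (adjusted p = 0.155 and 0.0924 from limma). The Per3 promoter was the only one with a D-box match among those searched, which also took in Arntl, Npas2 and Nfil3, and it held 2, at −205 and −158. They are shown in capitals (minus strand, chr4:151044792-151044884).
Per3: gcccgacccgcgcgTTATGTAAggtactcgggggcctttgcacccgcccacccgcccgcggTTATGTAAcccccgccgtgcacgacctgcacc

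The next nearest genes to Dbp were Fzd4, a Wnt receptor, and Lmod3, a protein of the thin filament of muscle (0.154 and 0.156). The same 3 genes were nearest to Ciart, in the order Fzd4, Lmod3 and Per3 (0.068, 0.158 and 0.165). Fzd4 read 10.84, 10.83 and 10.58 in young WT, 10.45 and 10 in aged WT, then 10.30 and 10.03 in aged MISR muscle. The genes nearest to Bhlhe41 were Syt12, Shisa4 and Rnf126 (0.036, 0.047 and 0.053), each lowest in aged MISR 2. Among the 9 genes, the closest pairs were Tef with Bhlhe41 (0.086) and Tef with Nr1d2 (0.088), and the most distant was Hlf with Bhlhe40 (0.300). With 7 arrays and 13364 genes such likeness is a description only.

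The rest of the clock and its known targets read less evenly. Of 15 core clock genes, 9 were tested, and Arntl was called in aged WT muscle and both Arntl and Npas2 in aged MISR muscle, all higher than in young WT muscle. Per1 ranged from 8.70 to 9.98 in aged WT muscle alone (difference −0.33, adjusted p = 0.632), and Clock differed from young WT by 0.21 (aged WT) and 0.25 (aged MISR) (adjusted p = 0.305 and 0.200). Per2 shares its feature with another symbol and was not used. Of 9 genes linked to the D-box or to PAR bZIP factors, 7 were tested and only Nfil3 was called, with median differences from young WT of −0.17 (aged WT) and −0.08 (aged MISR). Of 11 genes of REV-ERB co-repressors and REV-ERB-dependent muscle genes, 9 were tested and none was called. The largest difference there was that of Atg5, a gene of autophagosome formation, with differences of 0.26 (aged WT) and 0.34 (aged MISR) from young WT (adjusted p = 0.206 and 0.116). Sirt1, a deacetylase that acts on mitochondrial and clock regulators, was 0.20 and 0.11 higher (adjusted p = 0.206 and 0.372).

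Of 10 other clock-controlled genes, all were tested, and Klf10, a rhythmic zinc finger factor, and Nfil3 were called, both higher in aged MISR muscle than in young WT muscle. Klf10 read 7.56, 7.77 and 7.61 in young WT, 7.73 and 7.80 in aged WT, then 8.59 and 8.30 in aged MISR muscle, and rose by 0.80 (adjusted p = 0.0376 from limma). This call did not hold when any 1 young WT array, either aged WT array or aged MISR 1 was left out (adjusted p = 0.0736 to 0.208). Of 13 genes that follow systemic cues of the time of day or handling, such as temperature and glucocorticoids, 12 were tested. Of these only Angptl4, an inhibitor of lipoprotein lipase, was called. It read 5.77, 5.87 and 5.79 in young WT, 5.75 and 5.81 in aged WT, then 6.65 and 6.77 in aged MISR muscle. All 5 WT values were below the medians of their arrays, so Angptl4 passed the signal filter only through the aged MISR arrays, the group in which it is high. The differences of aged MISR from young WT and from aged WT muscle were 0.90 and 0.93 (adjusted p = 0.00997 and 0.0206 from limma). These calls too were lost on leaving out any 1 young WT array (adjusted p = 0.0788 to 0.130), and the call against aged WT muscle also without either aged WT array (0.103 and 0.108). Mt2, a metallothionein induced by glucocorticoids and metals, differed from young WT by 0.82 (aged WT) and 0.52 (aged MISR), without passing the test (adjusted p = 0.158 and 0.259). The aged WT arrays were far apart in Mt2, at 9.18 in aged WT 2 and 8.36 in aged WT 3, beside 7.84 to 8.08 in young WT muscle. The temperature-responsive Cirbp differed by 0.29 and 0.13, and the glucocorticoid-responsive Fkbp5 differed by −0.18 and −0.42, and neither passed the test.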

How the data were processed

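RNA of whole skeletal muscle (3 young WT, 2 aged WT and 2 aged MISR samples) was hybridised by the authors to 1-colour GeneChip Mouse Gene 2.0 ST arrays, normalized with RMA and deposited as log2 signals. The version of RMA is not stated in these sources. The number of arrays, 2 or 3 in a group, limits the precision. Of 41345 features, 23521 had 1 gene symbol in the platform table (annotation of GEO's platform record), 1820 had several and 16004 were not listed. They stood for 22180 genes, with 1 feature each (highest mean). Genes no lower than the median of the array in 2 or more arrays were tested with limma 3.58.1 in R 4.3.3 (4 residual and 3.13 prior degrees of freedom) and called under an adjusted p (Benjamini-Hochberg) of 0.05. The study names no test for the arrays in particular and chose its candidate genes by fold change. The steps were tested on simulated data. Alternatives changed the normalization, the filter, the feature, the arrays, the variance model and the test. Named were the 9 genes, called or most changed genes of 6 pathway lists, and the 3 genes nearest to the 3 members of widest range. The 9 genes and the lists were chosen with earlier results of these data known. Figures were drawn with matplotlib 3.10.9.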

Additional observations from a re-analysis of the deposited data

How the results depend on the processing

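None of the 9 genes was called in any of the 3 comparisons under 19 of the 20 alternatives (quantile normalization, centring, filters, feature means, leaving out each array, the variance models, 2-group fits, an adjusted p under 0.1, and leaving out aged WT 2 and aged MISR 1 together, chosen after seeing the data). The exception was Student's t-test at an unadjusted p under 0.05, a test the methods name for 2-group comparisons in other experiments, not for the arrays. It called 2 genes in aged WT against young WT (Dbp and Nr1d1), 1 between the aged groups and 1 between aged MISR and young WT muscle (Nr1d2 in both), and 0 after Benjamini-Hochberg. The signs against young WT muscle held in all 20 for 8 genes, Bhlhe40 being the exception in both comparisons. The counts of genes whose arrays did not overlap were not repeated under the alternatives. Over all genes the count called was 24 in aged WT against young WT muscle, 0 without the signal filter and 162 in a fit of only these groups. It was 7 between the aged groups (0 to 113 with 1 array left out) and 79 between aged MISR and young WT muscle (0 to 466). With the replicate number as a block 0 of the 9 genes and 0 genes of all were called in each comparison. Deviations from the group means of arrays with the same number correlated at −0.224 to −0.008. In a group of 2 arrays the deviations mirror each other, so these values cannot decide whether the numbers pair the arrays. Of the 20 alternatives, 9 lost the call of Arntl in aged WT muscle. Against young WT, those of aged MISR muscle were lost in 7 for Arntl, 9 for Npas2, 13 for Nfil3, 12 for Klf10 and 6 for Angptl4, and that of Angptl4 between the aged groups in 10. The replicate block (adjusted p = 0.109 to 0.302) and Student's t-test after Benjamini-Hochberg (0.136 to 0.729) lost all of these calls. The fits of only 2 groups lost Npas2 (0.0601), Nfil3 (0.0744), Klf10 (0.0736) and, between the aged groups, Angptl4 (0.673). Array weights lost Nfil3, Klf10 and the latter Angptl4 call, no signal filter lost Arntl in aged WT muscle, Nfil3 and Klf10, and quantile normalization lost Nfil3. A group left with 1 array was assumed to vary like the others. Leaving out either array of an aged group gives, for the other 2 groups, the same test as the fit of only those groups. The alternatives counted above are therefore not all independent.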
